A study of Homo sapiens with 16 samples.

Results

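ATF4 and the genes of the unfolded protein response were examined in SW480 colon adenocarcinoma cells with raised or lowered Ajuba. The 38 members were chosen by name, as the rows of the deposited count table whose identifier has one of the 38 symbols in GENCODE, out of 66023 genes in the table. All 38 were found. They were read as 10 regulators and stress targets around ATF4, an amino acid arm of 14 genes, 4 sensors of the endoplasmic reticulum (ER) and a chaperone arm of 10 genes.

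RNA-seq had been done on 6 lines made from SW480, in 16 samples. Parental (n = 2) was not modified, and shScrambled (n = 2) carried a lentiviral shRNA of random sequence. The knockdown (KD) lines shAjuba1 (n = 3) and shAjuba2 (n = 3) carried lentiviral shRNAs against the coding and a non-coding region of Ajuba. Ajuba OE (n = 3) carried a lentiviral Ajuba construct whose name gives a CMV promoter, and Control (n = 3) the same construct with its Ajuba sequence removed. The modified lines were stable lines selected with puromycin, so Parental differs from every other line by the virus and the selection too. The study speaks of technical replicates, so the p-values below measure the spread between these samples of 1 line and not between independently made lines.

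The integrated stress response begins with kinases that phosphorylate the initiation factor eIF2, which lowers most protein synthesis and favours translation of the ATF4 mRNA. ATF4 then switches on amino acid synthesis, amino acid transport and tRNA charging, together with CHOP (DDIT3) and the inhibitor TRIB3. In the unfolded protein response, PERK (EIF2AK3) feeds into the same route, whereas IRE1 (ERN1) with its substrate XBP1, and ATF6, switch on the chaperones of the ER. The transcript of ATF4 is not a measure of its protein, and spliced XBP1 cannot be told from the unspliced form in counts per gene.

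Total counts per sample ranged from 30132396 to 69684675. AJUBA itself lay between 47.3 and 68.6 RPM (counts per 1000000 counts of the sample) in the 6 samples of the KD lines, between 81.6 and 100.5 RPM in Parental, shScrambled and Control, and between 462 and 566 RPM in Ajuba OE. With shScrambled as the control, edgeR called AJUBA lower in the shAjuba1 line, at -0.73 on the log2 scale (adjusted p under 0.05). For the shAjuba2 line the value was -0.46, which did not pass after adjustment, although the unadjusted p was under 0.05. The lowered AJUBA of shAjuba2 therefore rests on its sample values and not on a call. Summed levels of 8 markers of colon epithelium lay between 2901 and 7008 RPM, and KRT20 alone of the 8 was near 0 (0.104 to 0.641 RPM). Apart from COL1A1 (5.71 to 26.4 RPM) no marker of fibroblasts, blood or endothelium passed 1.87 RPM in any sample. Replicate 2 of shAjuba2, Control and Ajuba OE stood low for the amino acid and chaperone arms. It was the lowest of the 3 samples for 13, 12 and 13 of the 14 genes of the amino acid arm and for 8, 7 and 8 of the 10 chaperones. Among 9 regulators (NUPR1, with few counts, left out) it was the lowest for 5, 3 and 3. Over 15851 genes with a mean of at least 1 RPM it was the lowest for 50.4%, 44% and 48.5%. The counts of calls below are therefore also given without these samples where they move. The share of all genes called was taken for the main fits and for those with Parental as the control. Counts under other settings have no such share beside them and are not read as results about the members.

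The arms are known for different promoter elements, and their letters were looked for on both strands of the RefSeq promoter table of GRCh38.p14, from 250 bases before to 50 bases after a gene's start. The table held 33 of the 38 members, with 45 promoters, and NUPR1, PSPH, SHMT2, SLC7A11 and ALDH1L2 were not matched. The C/EBP-ATF response element TGATGNAA, bound by ATF4, was in 3 of 13 promoters of the amino acid arm (23.1%), in 1 of 16 of the regulators and in 1 of 11 of the chaperone arm, against 3.62% of all 35116 promoters. The ER stress response element, CCAAT and CCACG with 9 bases between them, was in 3 of 11 promoters of the chaperone arm (27.3%) and in that of XBP1, against 0.0769% of all promoters. Its second form, ATTGG and CCACG with 1 base between them, was in 3 other promoters of the chaperone arm, against 0.0541% of all. The unfolded protein response element TGACGTGG was in 1 promoter of the chaperone arm, that of HYOU1, against 0.729% of all, and there it overlapped a match of the second form. These are letter matches only. The windows below show the elements of members on which the comparisons turn. They run 5′ to 3′ on the strand of the gene, with the match in capitals (its reverse complement where the match is on the other strand).
ASNS: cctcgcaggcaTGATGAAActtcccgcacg
SLC7A1: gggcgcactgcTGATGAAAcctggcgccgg
CHAC1: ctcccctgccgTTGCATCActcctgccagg
HERPUD1: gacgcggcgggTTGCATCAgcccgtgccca
HERPUD1: cggacgccgATTGGGCCACGttgggagag
HYOU1: cgctggccccgTGACGTGGtccaatcccag
XBP1: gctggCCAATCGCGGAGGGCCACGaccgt
CRELD2: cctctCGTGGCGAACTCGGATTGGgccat
HSPA5: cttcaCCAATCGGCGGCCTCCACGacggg

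The windows lie at chr7:97872458-97872487 on the minus strand for ASNS, chr13:29595663-29595692 on the minus strand for SLC7A1 and chr15:40953251-40953280 on the plus strand for CHAC1. Those of HERPUD1 are at chr16:56931955-56931984 and chr16:56932016-56932044 on the plus strand, which makes it the only member with matches of both the ATF4 element and an ER stress element. HYOU1 is at chr11:119057375-119057404 on the minus strand and XBP1 at chr22:28800598-28800626 on the minus strand. CRELD2 is at chr22:49918549-49918577 on the plus strand and HSPA5 at chr9:125241386-125241414 on the minus strand. In ASNS, which makes asparagine and is the textbook target of ATF4, the match spans positions -68 to -61 from the start of the gene. In HSPA5, the ER chaperone BiP, it spans -66 to -48.

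Per length of exon, SLC7A5, a transporter of large neutral amino acids, was the most abundant member, at 144.6 RPKM (RPM per kilobase of exon, here the mean of the 6 line means). ATF4 followed at 82.4, HSPA5 at 70.6 and the serine synthesis enzyme PSAT1 at 66.5 RPKM. The mitochondrial folate enzyme ALDH1L2 stood at 0.285 RPKM, and the stress factor NUPR1 at 0.0213 RPKM with 1 to 13 counts per sample. NUPR1 was below the filter on low counts in every comparison and was not tested, so 37 members were.

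Of these 37, 28 differed among the 6 lines (edgeR's quasi-likelihood F test, adjusted p under 0.05), against 45.7% of all genes tested. They were 13 of 14 genes of the amino acid arm, 8 of 9 regulators, 3 of 4 sensors and 4 of 10 chaperones. Line means also spread more in the amino acid arm. The highest line mean was a median of 1.85 times the lowest there (range 1.41 to 3.54 times), 1.86 times in the regulators and 1.38 times in the chaperone arm (range 1.18 to 2.05 times). Among all 38, 17 members had their lowest mean in shScrambled and 14 their highest in Parental. These 2 counts were not taken over all genes, so they are not read as a trait of the members.

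**Figure D1:**
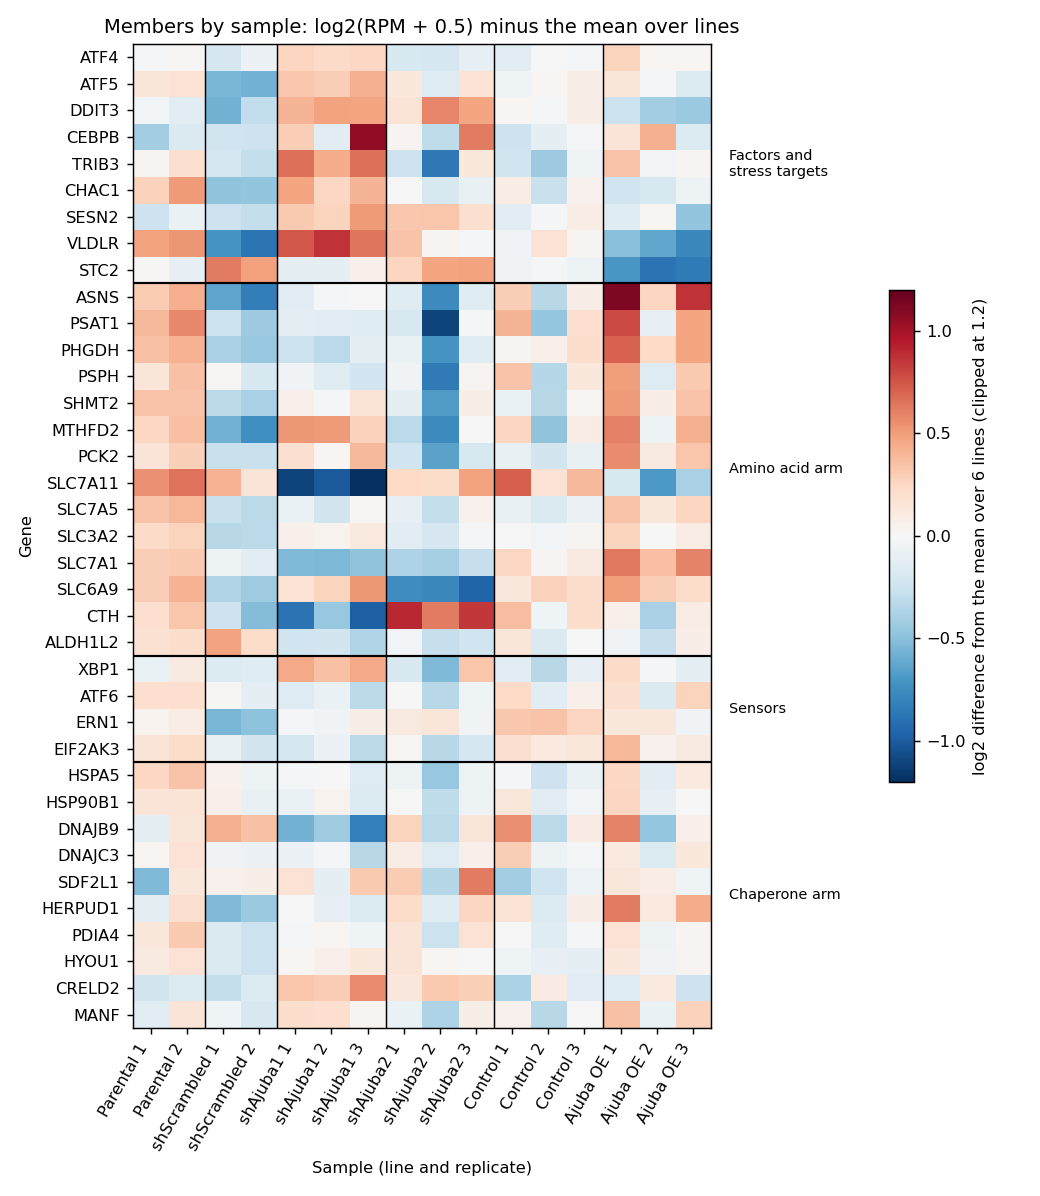
Each cell is log2(RPM + 0.5) of 1 member (rows, grouped by role) in 1 sample (columns), minus the mean of that gene over the 6 lines, with red above and blue below that mean and NUPR1 left out. The amino acid arm is red in the Parental samples, blue in the shScrambled samples for most of its genes (SLC7A11 and ALDH1L2 are red there) and deeper blue in replicate 2 of shAjuba2 than in its other samples.

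The control shRNA line was first set against the untreated line, to see how far a control lies from its origin. In shScrambled against Parental, 25 members were lower and 2 higher, where 15.6% of all genes tested were called lower and 15% higher (30.7% in all). The lower ones were 13 of 14 genes of the amino acid arm (median log2 fold change of the arm -0.69, against 0.03 over all genes), 5 regulators, 3 sensors and 4 chaperones (median of the arm -0.17). The higher ones were STC2, a secreted glycoprotein, and the chaperone DNAJB9. Of the 8 epithelial markers, 5 were lower and 1 higher in the same comparison (median -0.47), with sums of 4063 to 4203 RPM in shScrambled against 6091 to 6606 RPM in Parental, and their part in the result was not tested. Leaving out 1 sample left between 20 and 26 called, with TRIB3, PSPH, SLC7A11, ATF6, EIF2AK3 and HSPA5 lost both without Parental replicate 2 and without shScrambled replicate 2. The call of DDIT3 was lost without replicate 1 of either line, as was that of DNAJB9, which was also lost without shScrambled replicate 2. With all 16 samples in the fit, 15 were called. In Control against Parental no member was called by edgeR, where 0.37% of all genes were (0.0508% higher, 0.319% lower). There 10 members had an unadjusted p under 0.05 and DESeq2 called 2, VLDLR and SLC7A5, both lower. All 14 log2 fold changes of the amino acid arm were below 0 (median -0.25), and 3 members were called lower without replicate 2 of Control.

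In shAjuba1 against shScrambled, 20 members were higher and 5 lower, where 18.2% of all genes tested were called higher and 20.2% lower (38.4% in all). The higher ones were 8 of 9 regulators, 6 genes of the amino acid arm, 2 sensors and 4 chaperones. The lower ones were STC2, the amino acid arm genes SLC7A11, SLC7A1 and ALDH1L2, and DNAJB9. Leaving out 1 sample left between 20 and 27 called. Without shScrambled replicate 1 the calls of ATF4 (0.32), CEBPB, ALDH1L2 (-0.58), HERPUD1 and MANF were lost, and without shScrambled replicate 2 those of CEBPB, PCK2 (0.46), HYOU1 and MANF. In shAjuba2 against shScrambled, 5 members were higher and 0 lower, where 3.19% and 4.44% of all genes were (7.63% in all). They were the regulators VLDLR, DDIT3 and ATF5, the amino acid arm gene CTH and the sensor ERN1. This count rested on single samples. It was 0 without shScrambled replicate 1 or without its replicate 2, 1 without shAjuba2 replicate 1, 3 without shAjuba2 replicate 3, and 15 (12 higher, 3 lower) without shAjuba2 replicate 2, whose low amino acid arm is given above and whose epithelial markers summed to 2901 RPM, the lowest of the series. DESeq2 called 7 higher. The share of all genes called was not taken for DESeq2 or for the fits without a sample, so these counts have no background. No member was called lower by either tool, and 12 members had an unadjusted p under 0.05 in either direction. Both KD lines are compared with the same 2 shScrambled samples, so their results are not independent of each other or of the shScrambled comparison with Parental.

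In Ajuba OE against Control, 1 member was higher and 3 lower, where 2.39% and 3.03% of all genes tested were (5.43% in all). Epithelial markers summed to 5754 to 7008 RPM in Ajuba OE and 4851 to 5968 RPM in Control, with 3 of 8 higher, and their part was not tested. PCK2, the mitochondrial PEP carboxykinase, was higher. SLC7A11, STC2 and VLDLR were lower. Without replicate 2 of both lines, 10 were called (7 higher, 3 lower), and DESeq2 called 9 (6 higher, 3 lower). For neither of these counts was the share of all genes called taken. Leaving out 1 sample gave between 1 and 6: 6 without Ajuba OE replicate 2, 3 without Control replicate 2, 2 without Control replicate 1, and 1 without replicate 3 of either line or replicate 1 of Ajuba OE. The VLDLR call was lost in the last 3 of these (-0.57 to -0.68), that of SLC7A11 in all but the one without Control replicate 2 (-0.63 to -0.90), and that of STC2 in none of the 6.

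**Figure D2:**
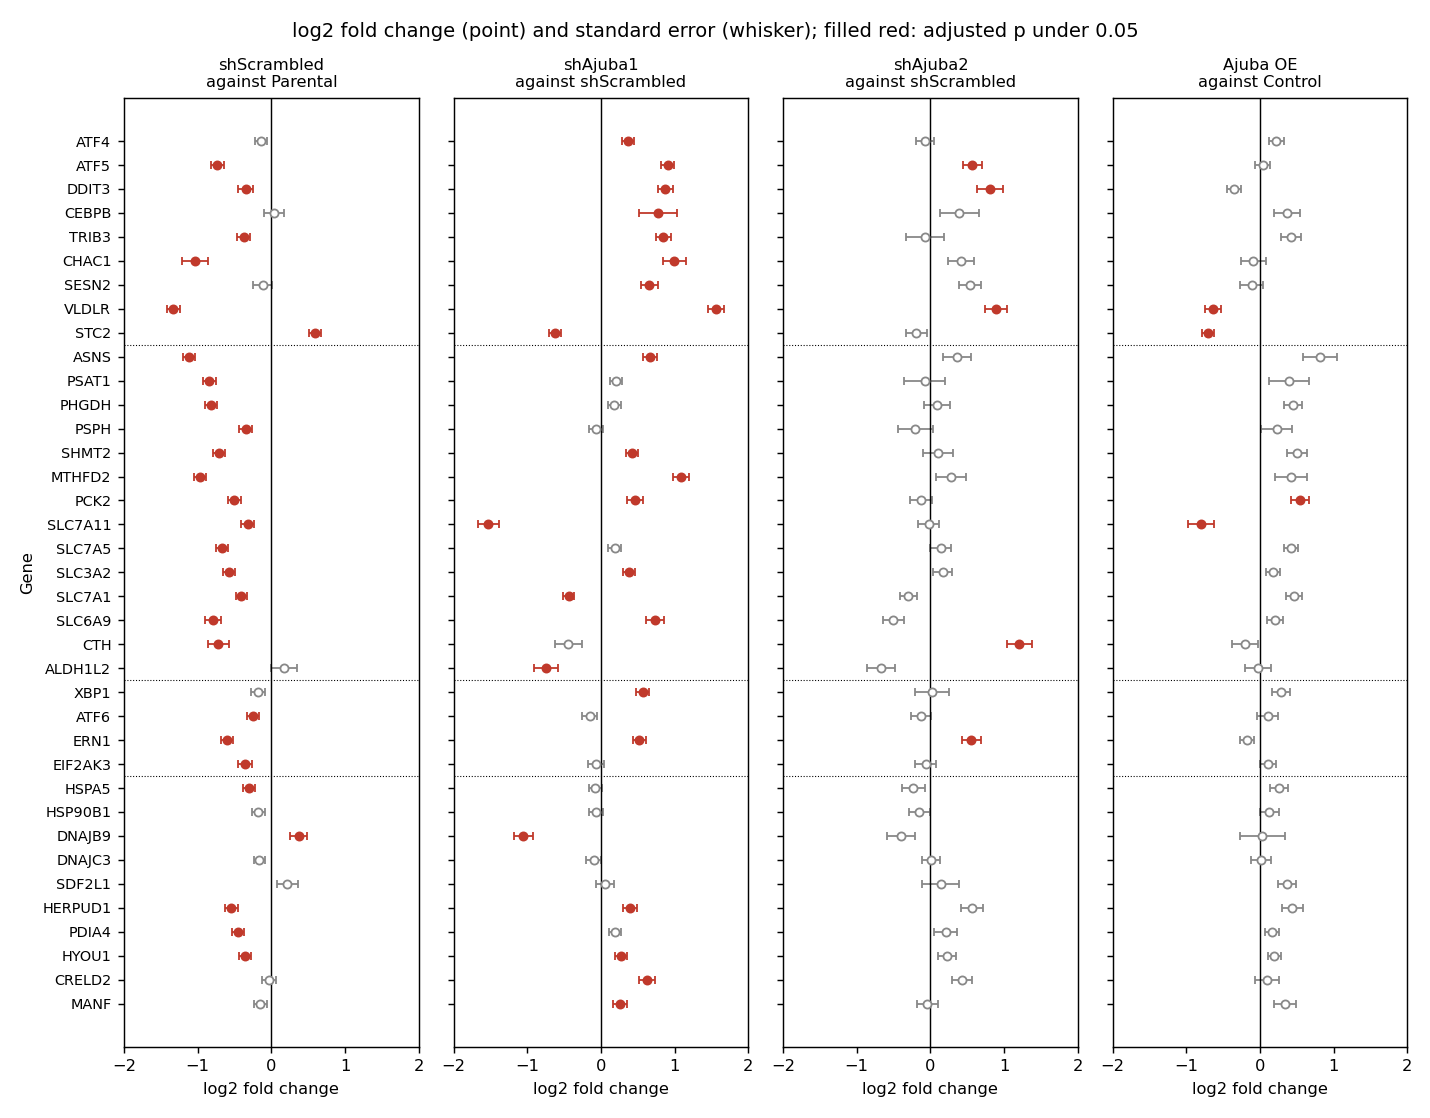
Points give the log2 fold change of each of 37 members (rows, grouped by role) in 4 comparisons with their own control, whiskers the standard error, and filled red points the members past an adjusted p of 0.05 in edgeR. In shScrambled against Parental the amino acid arm lies to the left of 0 in 13 of 14 genes, whereas in shAjuba1 against shScrambled genes lie on both sides, from -1.53 for SLC7A11 to 1.56 for VLDLR.

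Among the regulators, ATF4 was called in shAjuba1 alone of the lines compared with their own controls. It stood at 213 and 215.5 RPM in Parental, 185.5 and 204 in shScrambled, 255, 252 and 254 in shAjuba1, and 189, 186 and 200.3 in shAjuba2. Control samples had 195, 213 and 211.5 RPM and Ajuba OE samples 258, 217 and 218. Every shAjuba1 sample was above every sample of Parental, shScrambled, shAjuba2 and Control. ATF4 rose in shAjuba1 against shScrambled by a log2 fold change of 0.37 ± 0.08 (SE, edgeR adjusted p = 0.003), a call that was lost without shScrambled replicate 1. In shAjuba2 it was -0.07 ± 0.12 and in Ajuba OE 0.22 ± 0.10 (edgeR adjusted p = 0.761 and 0.274). As these are bulk counts, less RNA of a gene per cell cannot be told from fewer cells that express it.

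VLDLR, a lipoprotein receptor that ATF4 raises under ER stress, had the widest line means among the 9 regulators tested, the highest being 2.98 times the lowest. It stood at 36.1 and 37.3 RPM in Parental and 15.6 and 13.8 in shScrambled. It was at 43.5, 47.3 and 40.5 RPM in shAjuba1, 32.8, 26.4 and 25.3 in shAjuba2, 25.1, 29.1 and 26.3 in Control, and 18.0, 16.5 and 14.9 in Ajuba OE. The samples of each line and of its control did not overlap. VLDLR fell in shScrambled against Parental by 1.33 ± 0.09 on the log2 scale (SE, edgeR adjusted p = 1.15e-10). It rose against shScrambled by 1.56 ± 0.11 in shAjuba1 (adjusted p = 3.80e-07) and 0.89 ± 0.15 in shAjuba2 (adjusted p = 0.0162, edgeR), and fell by 0.64 ± 0.11 in Ajuba OE against Control (edgeR adjusted p = 0.0154). Against Parental, shAjuba1 differed by 0.22 and shAjuba2 by -0.45 (edgeR adjusted p = 0.0795 and 0.083), neither of which passed the test, whereas Ajuba OE was lower (edgeR adjusted p = 0.00121). VLDLR shares exon bases with an antisense gene, and whether reads were counted by strand is not stated.

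DDIT3, which encodes CHOP, stood at 24.2 and 22.5 RPM in Parental, 16.6 and 20.1 in shScrambled, 32.9, 34.8 and 34.6 in shAjuba1, and 27.8, 37.4 and 34.5 in shAjuba2. Control had 25.2, 24.5 and 26.2 RPM and Ajuba OE 20.6, 18.5 and 18.0. Both KD lines were above all other samples, and the Ajuba OE samples were below the Control samples. The rise was 0.88 ± 0.10 in shAjuba1 and 0.81 ± 0.18 in shAjuba2 (SE, edgeR adjusted p = 3.20e-05 and 0.0363), the latter being lost without either shScrambled sample or without shAjuba2 replicate 1 or 3. Ajuba OE against Control was -0.35 ± 0.09 and did not pass the test (edgeR adjusted p = 0.0846). DDIT3 shares 355 exon bases with MARS1 on the other strand, which had 129412 counts over all samples against 18547 for DDIT3. The part of this overlap in the DDIT3 values was not tested.

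ATF5, a factor translated like ATF4, and CHAC1, which degrades glutathione, had their lowest line mean in shScrambled. ATF5 stood at 24.0 and 23.6 RPM there, 39.0 and 39.9 in Parental, 44.3, 43.3 and 47.7 in shAjuba1, and 38.6, 31.7 and 39.6 in shAjuba2. CHAC1 was at 2.09 and 2.11 RPM in shScrambled, 3.89 and 4.67 in Parental, 4.52, 3.78 and 4.31 in shAjuba1, and 3.10, 2.66 and 2.90 in shAjuba2. Neither gene overlapped between shScrambled and the other 3 of these lines. ATF5 fell by 0.73 ± 0.08 in shScrambled and rose by 0.91 ± 0.09 in shAjuba1 and 0.57 ± 0.13 in shAjuba2 (SE, edgeR adjusted p = 3.70e-07, 7.02e-06 and 0.0429). CHAC1 fell by 1.04 ± 0.18 in shScrambled and rose by 0.99 ± 0.15 in shAjuba1 (SE, edgeR adjusted p = 0.000102 and 0.000264). ATF5 shares 565 exon bases with NUP62, a gene on the other strand with 70253 counts over all samples against 26234 for ATF5.

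TRIB3, a pseudokinase that restrains ATF4, stood at 39.8, 34.2 and 39.8 RPM in shAjuba1, above every other sample of the series (13.5 to 31.8 RPM). It rose by 0.85 ± 0.10 against shScrambled (SE, edgeR adjusted p = 3.19e-05). SESN2, a leucine sensor that restrains mTORC1, rose by 0.66 ± 0.12 and the factor CEBPB by 0.77 ± 0.26 in shAjuba1 (edgeR adjusted p = 0.000844 and 0.031). CEBPB samples of shAjuba1 were far apart, at 9.44, 6.87 and 16.4 RPM against 6.34 and 6.30 in shScrambled, and its call was lost without either shScrambled sample, with all 16 samples in the fit and in DESeq2.

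In shScrambled against Parental and in shAjuba1 against shScrambled, STC2 went the other way from most regulators. It stood at 293 and 268 RPM in shScrambled, 193 and 178 in Parental, 177, 177 and 199 in shAjuba1, and 228, 266 and 267 in shAjuba2. Control had 185, 188 and 184 RPM and Ajuba OE 118, 103 and 106. The shScrambled samples were the highest of the series and the Ajuba OE samples the lowest. STC2 rose by 0.59 ± 0.08 in shScrambled against Parental, fell by 0.62 ± 0.08 in shAjuba1 against shScrambled and fell by 0.71 ± 0.08 in Ajuba OE against Control (SE, edgeR adjusted p = 5.27e-06, 9.29e-05 and 0.00353).

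**Figure D3:**
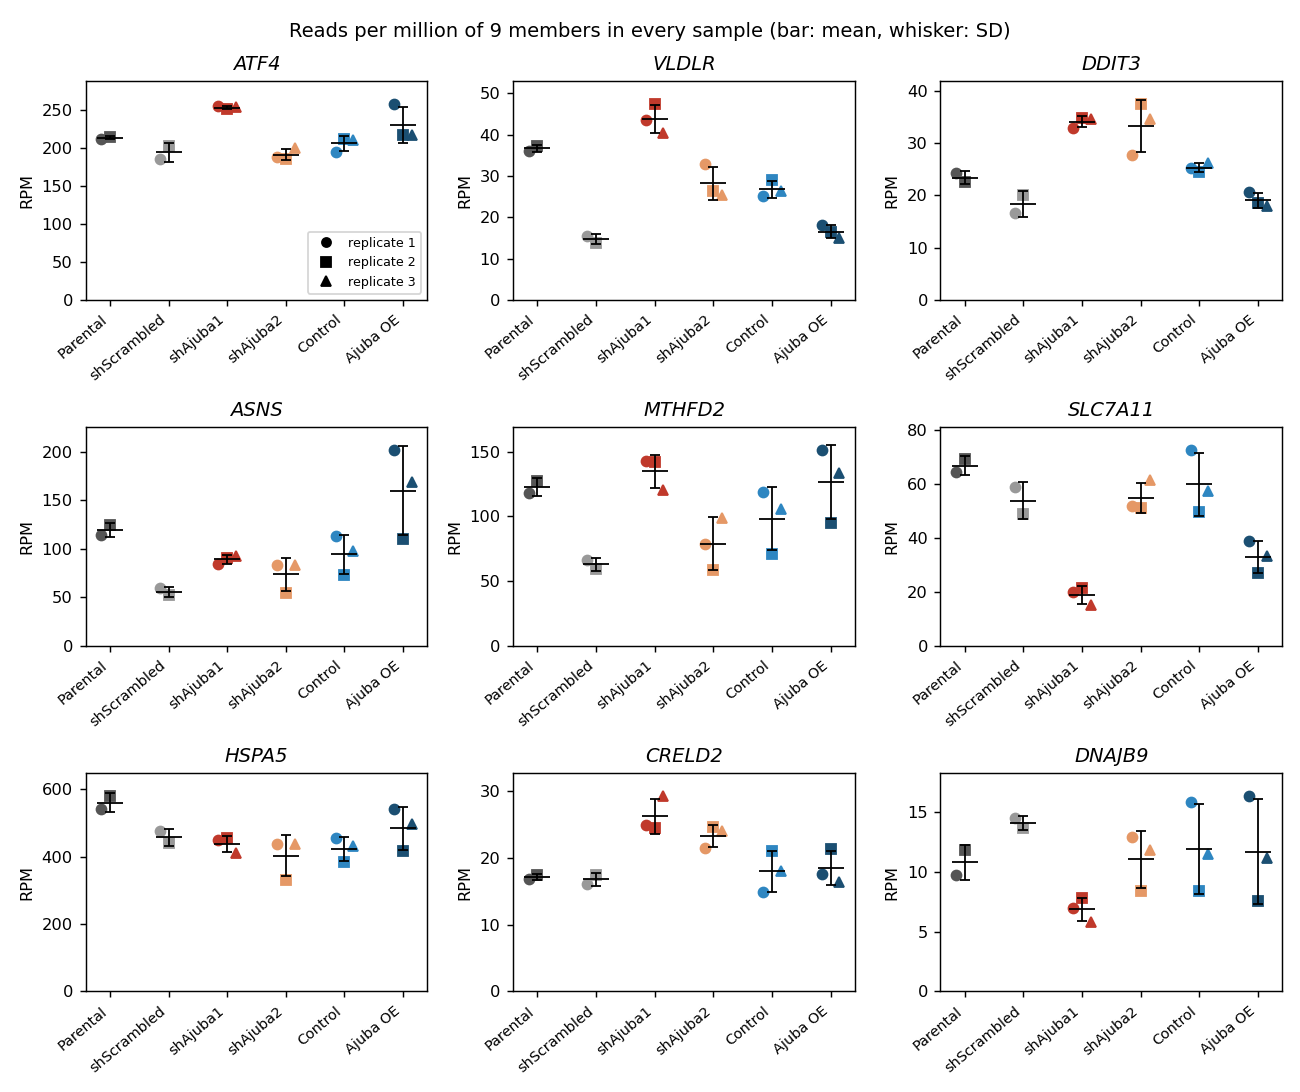
Panels show RPM (vertical axis, from 0) of 9 members in every sample of the 6 lines, with the replicate number as the marker, a bar at the mean and whiskers of 1 SD. VLDLR, ASNS and MTHFD2 are lowest on average in shScrambled, SLC7A11 and DNAJB9 are lowest on average in shAjuba1, and the HSPA5 samples lie within 332 to 580 RPM.

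In the amino acid arm, ASNS stood at 114 and 125 RPM in Parental and 59.1 and 51.7 in shScrambled. It was at 83.8, 90.9 and 92.4 RPM in shAjuba1, 83.4, 54.2 and 83.1 in shAjuba2, 113, 72.8 and 97.3 in Control, and 201, 110.1 and 168 in Ajuba OE. The shAjuba1 samples lay between those of shScrambled and those of Parental, without overlap. ASNS fell by 1.11 ± 0.08 in shScrambled against Parental and rose by 0.67 ± 0.09 in shAjuba1 against shScrambled (SE, edgeR adjusted p = 4.02e-10 and 0.000102), but against Parental shAjuba1 was lower by 0.45 on the log2 scale (edgeR adjusted p = 0.00111). The differences in shAjuba2 (0.36 ± 0.19, edgeR adjusted p = 0.283) and in Ajuba OE against Control (0.82 ± 0.23, edgeR adjusted p = 0.0999) did not pass the test. Without replicate 2 of both lines the Ajuba OE difference was 0.86 and passed.

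Serine synthesis and 2 of the 3 folate enzymes, MTHFD2 and SHMT2, were lower in shScrambled than in Parental, whereas ALDH1L2 was 0.17 and not called (edgeR adjusted p = 0.489). PHGDH, PSAT1 and PSPH, the serine synthesis route, fell by 0.82, 0.84 and 0.35 on the log2 scale (edgeR adjusted p = 1.66e-08, 4.45e-08 and 0.00376). In shAjuba1 against shScrambled they were 0.18, 0.20 and -0.07, and none passed the test (edgeR adjusted p = 0.122, 0.0742 and 0.638). MTHFD2 and SHMT2 of the mitochondrial folate cycle did rise there. MTHFD2 stood at 66.6 and 59.2 RPM in shScrambled, 118 and 127.5 in Parental, 143, 142 and 120.1 in shAjuba1, and 78.9, 58.3 and 99.1 in shAjuba2. All shAjuba1 samples were above the shScrambled and shAjuba2 samples and overlapped Parental. The rise of MTHFD2 was 1.09 ± 0.10 and that of SHMT2 0.42 ± 0.08 (SE, edgeR adjusted p = 4.85e-06 and 0.0015). SHMT2 in shAjuba1 remained lower than in Parental by 0.30 on the log2 scale (edgeR adjusted p = 0.00821). ALDH1L2, of the same cycle, fell by 0.75 ± 0.16 in shAjuba1 (SE, edgeR adjusted p = 0.00289), from 3.92 and 3.18 RPM to 2.18, 2.22 and 1.96. It shares 131 exon bases with WASHC4 on the other strand, which had 52863 counts over all samples against 1885 for ALDH1L2.

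PCK2 stood at 26.4 RPM in both shScrambled samples, 36.3, 32.3 and 41.8 in shAjuba1, 29.9, 27.2 and 29.8 in Control, and 47.3, 34.4 and 40.1 in Ajuba OE. Neither line overlapped its control. It rose by 0.47 ± 0.11 in shAjuba1 and by 0.55 ± 0.12 in Ajuba OE (SE, edgeR adjusted p = 0.00428 and 0.043). The Ajuba OE call was lost without Control replicate 1, 2 or 3 and without Ajuba OE replicate 1 or 3.

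All 5 transporter genes of the arm fell in shScrambled against Parental, but in shAjuba1 and Ajuba OE they were on both sides of 0. SLC7A11, the cystine-glutamate exchanger xCT, stood at 58.8 and 48.9 RPM in shScrambled, 64.4 and 69.4 in Parental, 19.99, 21.6 and 15.1 in shAjuba1, and 51.9, 51.1 and 61.4 in shAjuba2. Control had 72.6, 49.6 and 57.4 RPM and Ajuba OE 38.7, 27.0 and 33.3. The shAjuba1 samples were the lowest of the series and the Ajuba OE samples the next lowest. SLC7A11 fell by 1.53 ± 0.14 in shAjuba1 and by 0.80 ± 0.17 in Ajuba OE (SE, edgeR adjusted p = 3.30e-06 and 0.0404), and was -0.02 ± 0.14 in shAjuba2. Its partner SLC3A2, the heavy chain it shares with SLC7A5, rose by 0.38 ± 0.08 in shAjuba1 (SE, edgeR adjusted p = 0.00217), whereas SLC7A5 was 0.19 ± 0.09 and did not pass.

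SLC7A1, which imports arginine and lysine, stood at 174 and 166 RPM in shScrambled and at 126, 125 and 131 in shAjuba1, with 141, 138 and 149.9 in shAjuba2. It fell by 0.44 ± 0.07 in shAjuba1 (SE, edgeR adjusted p = 0.000538), and shAjuba2 was -0.30 ± 0.12 (edgeR adjusted p = 0.155). Control had 216, 186 and 196 RPM and Ajuba OE 282, 234 and 276, a difference of 0.47 ± 0.11 that did not pass (edgeR adjusted p = 0.0521) although the samples did not overlap. The glycine transporter SLC6A9 stood at 9.66 and 9.18 RPM in shScrambled, 14.2, 15.2 and 18.2 in shAjuba1 and 7.27, 7.12 and 6.22 in shAjuba2. It rose by 0.74 ± 0.12 in shAjuba1 (SE, edgeR adjusted p = 0.000426), and shAjuba2 was -0.50 ± 0.15 (edgeR adjusted p = 0.0796). SLC6A9 shares 413 exon bases with CCDC24 on the other strand, which had 8581 counts over all samples against 9543 for SLC6A9. CTH, which makes cysteine from cystathionine, showed the reverse order. It stood at 5.40 and 4.37 RPM in shScrambled, 3.29, 4.61 and 3.04 in shAjuba1, and 12.6, 10.3 and 12.1 in shAjuba2. It rose by 1.21 ± 0.17 in shAjuba2 (SE, edgeR adjusted p = 0.00721), and shAjuba1 was -0.45 ± 0.18 (edgeR adjusted p = 0.0716).

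In the group of sensors, ERN1 and its substrate XBP1 rose in shAjuba1. ERN1 stood at 23.2 and 24.2 RPM in shScrambled, 35.3 and 36.4 in Parental, 33.9, 33.3 and 36.0 in shAjuba1, and 36.8, 38.0 and 33.2 in shAjuba2, so that shScrambled lay below the other 3 lines. ERN1 rose by 0.52 ± 0.09 in shAjuba1 and 0.56 ± 0.13 in shAjuba2 (SE, edgeR adjusted p = 0.000603 and 0.0409), after a fall of 0.60 ± 0.08 in shScrambled against Parental (edgeR adjusted p = 9.06e-06). XBP1 stood at 22.9 and 23.1 RPM in shScrambled, 24.2 and 27.8 in Parental, 35.3, 32.8 and 35.2 in shAjuba1, and 22.5, 17.6 and 32.5 in shAjuba2. Every shAjuba1 sample was above every other sample of the series. XBP1 rose by 0.57 ± 0.09 against shScrambled and by 0.38 against Parental (edgeR adjusted p = 0.000331 and 0.00915), and shAjuba2 was 0.02 ± 0.23. ATF6 and EIF2AK3 fell in shScrambled against Parental by 0.25 ± 0.08 and 0.36 ± 0.09 (SE, edgeR adjusted p = 0.0178 and 0.00532). In shAjuba1 against shScrambled they were -0.15 ± 0.10 and -0.06 ± 0.11 and did not pass the test (edgeR adjusted p = 0.253 and 0.697).

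In the chaperone arm HSPA5 stood at 541 and 580 RPM in Parental, 475 and 439 in shScrambled, 448, 456 and 411 in shAjuba1, and 439, 332 and 438 in shAjuba2. Control had 454, 384 and 431 RPM and Ajuba OE 541, 416 and 497. Parental was above all shScrambled and KD samples, the shAjuba1 samples overlapped those of shScrambled, and the highest shAjuba2 sample (438.6 RPM) lay just under the lowest shScrambled sample (438.9 RPM). HSPA5 fell by 0.30 ± 0.08 in shScrambled against Parental (SE, edgeR adjusted p = 0.00746). Against their controls shAjuba1 was at -0.07 ± 0.09, shAjuba2 at -0.23 ± 0.16 and Ajuba OE at 0.26 ± 0.12, and none of the 3 passed the test (edgeR adjusted p = 0.546, 0.386 and 0.322). GRP94 (HSP90B1), the co-chaperone DNAJC3 and SDF2L1 were not called in these 4 comparisons either, with log2 fold changes from -0.17 to 0.37.

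CRELD2, a secreted ER stress protein, stood at 16.1 and 17.5 RPM in shScrambled, 16.8 and 17.5 in Parental, 25.0, 24.5 and 29.3 in shAjuba1, and 21.5, 24.6 and 24.0 in shAjuba2. Both KD lines were above both of these controls. It rose by 0.63 ± 0.11 in shAjuba1 (SE, edgeR adjusted p = 0.000518) and by 0.58 against Parental (edgeR adjusted p = 0.00111), and in shAjuba2 was 0.43 ± 0.14 (edgeR adjusted p = 0.0972). CRELD2 shares 168 exon bases with ALG12 on the other strand, which had 9997 counts over all samples against 14588 for CRELD2. HERPUD1, which helps degrade ER proteins, stood at 31.9 and 33.9 RPM in shScrambled against 42.6 and 52.8 in Parental and 46.6, 43.2 and 41.2 in shAjuba1. It fell by 0.54 ± 0.09 in shScrambled and rose by 0.39 ± 0.09 in shAjuba1 (SE, edgeR adjusted p = 9.86e-05 and 0.00542). HYOU1, a large chaperone of the HSP70 family, and MANF, a secreted protective factor, rose in shAjuba1 by 0.27 ± 0.08 and 0.26 ± 0.10 (SE, edgeR adjusted p = 0.0163 and 0.0481). The MANF call was lost without either shScrambled sample and without shAjuba1 replicate 1 or 2, and the HYOU1 call without shScrambled replicate 2 or shAjuba1 replicate 1.

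In shAjuba1 against shScrambled, 4 of the 10 chaperones were called higher and 1 lower, and 4 log2 fold changes of the arm were below 0. The 1 called lower was DNAJB9, a co-chaperone of BiP that restrains IRE1. It stood at 14.5 and 13.7 RPM in shScrambled, 9.75 and 11.8 in Parental, 6.99, 7.77 and 5.82 in shAjuba1, and 12.9, 8.38 and 11.8 in shAjuba2. The shAjuba1 samples lay below those of all 3 other lines. DNAJB9 fell by 1.05 ± 0.13 in shAjuba1 (SE, edgeR adjusted p = 3.97e-05) and by 0.69 on the log2 scale against Parental (edgeR adjusted p = 0.00301). PDIA4, a disulfide isomerase, fell by 0.45 ± 0.08 in shScrambled against Parental (SE, edgeR adjusted p = 0.000205) and was 0.19 ± 0.08 in shAjuba1 (edgeR adjusted p = 0.0743). In shAjuba2 and in Ajuba OE no chaperone was called by edgeR, where 7.63% and 5.43% of all genes tested were. In shAjuba2 2 had an unadjusted p under 0.05, and DESeq2 called 1. In Ajuba OE 2 had an unadjusted p under 0.05, and DESeq2 called 0; without replicate 2 of both lines HERPUD1 was called higher. Without shAjuba2 replicate 2, 3 chaperones were called, HERPUD1, PDIA4 and CRELD2, all higher.

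The arms were then compared within each sample, as the mean over an arm of log2(RPM + 0.5) minus the gene's mean over the 6 lines. No p-value is given, as the genes were chosen. The amino acid arm minus the chaperone arm was 0.28 ± 0.08 in Parental (SD, n = 2), 0.10 ± 0.07 in Control (SD, n = 3) and 0.16 ± 0.09 in Ajuba OE (SD, n = 3). It was -0.18 ± 0.06 in shScrambled (SD, n = 2), -0.14 ± 0.04 in shAjuba1 (SD, n = 3) and -0.23 ± 0.04 in shAjuba2 (SD, n = 3). The 8 samples of Parental, Control and Ajuba OE lay between 0.02 and 0.34, and the 8 samples with an shRNA between -0.27 and -0.10, so the sets did not overlap. In replicate 2 of shAjuba2 both arms were low, at -0.47 for the amino acid arm and -0.20 for the chaperone arm, and their difference was the lowest of the 16. The amino acid arm alone averaged 0.34 in Parental, -0.27 in shScrambled, -0.17 in shAjuba1 and -0.20 in shAjuba2. The chaperone arm averaged 0.06, -0.09, -0.02 and 0.02 in these lines, with SDs of 0.03 to 0.20. With the median over members in place of the mean, the difference in shAjuba1 was -0.06.

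**Figure D4:**
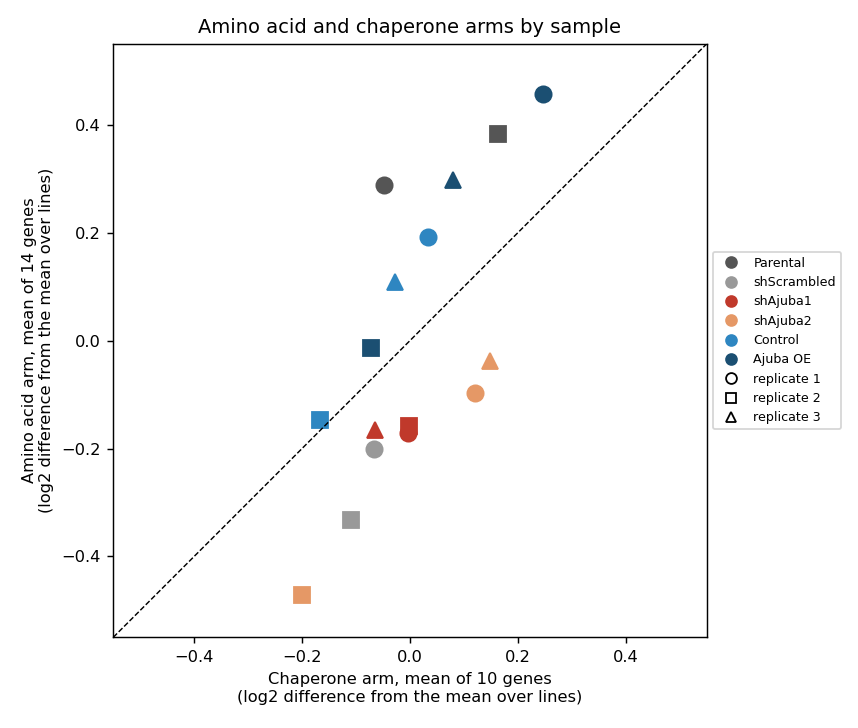
Each point is 1 of 16 samples, with the mean level of the 10 chaperones (horizontal) and of the 14 amino acid genes (vertical), both as log2 differences from the mean over the 6 lines, and the dashed line marks equal values. Samples of Parental, Control and Ajuba OE lie above the line and samples with an shRNA lie below it.

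Since shScrambled differs from Parental in 27 members, the choice of control bears on what a KD line shows. With Parental as the control, 7 members were higher and 17 lower in shAjuba1, where 17.6% and 20.5% of all genes tested were (38.1% in all). In the amino acid arm 11 of 14 were lower and 0 higher (median -0.47), where 6 had been higher and 3 lower against shScrambled. Of the 9 regulators tested, 5 were higher and 0 lower: ATF4 by 0.22, DDIT3 by 0.52, CEBPB by 0.80, TRIB3 by 0.46 and SESN2 by 0.53 on the log2 scale. Among the chaperones CRELD2 was higher and HSPA5, HSP90B1, DNAJB9 and PDIA4 were lower. The log2 fold changes of 13 members changed sign with the control in shAjuba1. Of these, ASNS, SHMT2, SLC3A2, PCK2, CHAC1, SLC6A9, ERN1, HERPUD1 and HYOU1 had been called higher against shScrambled, and ASNS, SHMT2, SLC3A2, PSAT1, PHGDH, SLC7A5 and PDIA4 were called lower against Parental. In shAjuba2 against Parental, SLC7A1 and SLC6A9 were lower (by 0.72 and 1.30 on the log2 scale), where 3.88% of all genes were called lower and 4.26% higher (8.14% in all). In Ajuba OE against Parental, VLDLR, STC2 and SLC7A11 were lower (STC2 by 0.72 and SLC7A11 by 0.97 on the log2 scale), where 4.84% of all genes were called lower and 2.3% higher (7.15% in all). These comparisons share the Parental samples.

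The KD lines were also set against each other, which does not use shScrambled. In shAjuba1, 7 members were higher and 4 lower than in shAjuba2, where 9.47% and 10.1% of all genes tested were (19.6% in all). SLC6A9, TRIB3, MTHFD2, VLDLR, PCK2, CHAC1 and ATF4 were higher, and CTH, SLC7A11, DNAJB9 and STC2 lower. The difference was 1.26 ± 0.14 for SLC6A9, -1.63 ± 0.18 for CTH and -1.49 ± 0.16 for SLC7A11 (SE, edgeR adjusted p = 0.000356, 0.000344 and 0.000247). AJUBA differed by -0.26 on the log2 scale and was not called. Leaving out 1 sample left between 5 and 11 members called. It was 5 without shAjuba2 replicate 1 and 6 without shAjuba1 replicate 1 or 3, whereas 11 were called without shAjuba2 replicate 2.

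Other genes of these pathways were counted from lists that do not overlap the members, and each share called is set beside that of all genes tested. In shScrambled against Parental, 10 of 12 tRNA synthetases known as ATF4 targets were lower and 0 higher (83.3%, against 30.7% of all genes, median -0.42), led by WARS1 (-0.66), AARS1 (-0.64) and MARS1 (-0.58). Of 8 synthetases not known as such, 3 were lower there (37.5%, median -0.11). In shAjuba1 against shScrambled, 5 of the 12 were higher and 1 lower (50%, against 38.4% of all genes), with WARS1 at 0.59 and EPRS1, the lower one, at -0.43. Of 14 other ATF4 targets, 8 were lower and 3 higher in shScrambled against Parental (78.6%, median -0.27). In shAjuba1 9 were higher and 3 lower (85.7%, median 0.41). The glutamine transporter SLC1A5 was 0.72 higher and PPP1R15A, which reverses eIF2 phosphorylation, 0.52 higher, whereas KLHL24 was lower at -0.84. In Ajuba OE against Control 4 of the 14 were called (28.6%, against 5.43% of all genes). PYCR1, of proline synthesis, and SLC1A5 were higher at 0.78 and 0.71, and PPP1R15A and KLHL24 lower at -0.45 and -0.71. In shAjuba2 against shScrambled none of the 14 was called by edgeR (7.63% of all genes were), with 5 at an unadjusted p under 0.05.

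In 3 further lists the shares called in shScrambled against Parental lay nearer to that of all genes than those of the ATF4 target lists. They were 36.4%, 42.9% and 21.4%, against 30.7% of all genes. In shAjuba1 against shScrambled this did not hold for every list, as ER-associated degradation had the 50% of the ATF4 tRNA synthetases. Of 11 genes of eIF2 control, which are kinases, a phosphatase subunit, a phosphatase adaptor, eIF2 itself and its exchange factor, 4 were lower in shScrambled against Parental (36.4%, against 30.7% of all genes), among them the kinase EIF2AK1 (-0.44). In shAjuba1 3 were lower and 1 higher (36.4%, against 38.4% of all genes), among them GCN2 (EIF2AK4, -0.52), the kinase that senses uncharged tRNA. Of 14 other folding factors of the ER, 6 were lower in shScrambled against Parental (42.9%, median -0.21), led by DNAJC10 (-0.60) and calnexin (CANX, -0.36). In shAjuba1 2 were higher and 1 lower (21.4%, below the 38.4% of all genes), the lower one being the oxidase ERO1A (-0.55). Of 14 genes of ER-associated degradation, 6 were lower in shAjuba1 and 1 higher (50%, against 38.4% of all genes, median -0.14), with HERPUD2 at -0.75 and the mannosidase-like EDEM1 at -0.55. The higher gene, DERL3, was at 1.40, but it shares 2923 exon bases with SMARCB1 on the other strand.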

How the data were processed

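RNA-seq counts of 6 SW480 lines (16 samples) were analysed. The authors deposited raw counts per gene, made from paired-end stranded mRNA libraries with HISAT2 on hg38 and featureCounts. Their strand option, annotation release and versions are not given in the sources used here, so counts of overlapping genes are uncertain. Samples were grouped by line as labelled. Symbols, exon lengths and overlaps came from GENCODE 44. RPM is the count divided by the sample's total, times 1000000.

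Counts were tested with edgeR 4.0.16 (R 4.3.3, limma 3.58.1) by the quasi-likelihood test (two-sided) on the samples of the lines compared, with filterByExpr, TMM and Benjamini-Hochberg adjustment over all genes tested; the call was an adjusted p under 0.05. Standard errors were taken as the size of the log2 fold change over the root of its F statistic. The fitting was tested on simulated data. DESeq2 1.42.0 was an alternative. At this depth counting error matters for the rarest member, NUPR1 (1 to 13 counts). Figures used Python 3.11.15, pandas 2.3.3, numpy 2.4.6 and matplotlib 3.10.9.

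Named genes were ASNS, HSPA5, ATF4, DDIT3 and XBP1, and called members, up to 8 per group by p; other members are given by counts, ranges or for contrast, and named genes of other lists are among the 3 with the smallest p of those called, with some named after their values were seen. The members and lists were chosen with earlier results of these data known. Protein sequences were not used here. The description of the design speaks of triplicates, but Parental and shScrambled have 2 samples each.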

Additional observations from a re-analysis of the deposited data

Results flagged for a closer look

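The KD lines shAjuba1 and shAjuba2 were compared directly, and 11 members differed between them in edgeR's quasi-likelihood test, which is a test of the difference between their changes from the shared shScrambled samples. On the log2 scale, shAjuba1 minus shAjuba2 was 0.45 for ATF4, 0.93 for TRIB3, 0.59 for CHAC1 and 0.69 for VLDLR among the regulators, and -0.42 for STC2. In the amino acid arm it was 0.83 for MTHFD2, 0.61 for PCK2, 1.26 for SLC6A9, -1.49 for SLC7A11 and -1.63 for CTH. In the chaperone arm it was -0.64 for DNAJB9. Of all genes tested, 19.6% were called in this comparison (9.47% higher and 10.1% lower in shAjuba1). Replicate 2 of shAjuba2 was low for the amino acid arm, and 11 members were also called without it. Each sample was also left out in turn. The calls of ATF4, TRIB3, CHAC1, MTHFD2, PCK2 and DNAJB9 were lost without shAjuba2 replicate 1. Without shAjuba1 replicate 1 those of ATF4, CHAC1, PCK2 and DNAJB9 were lost. Without its replicate 2 those of ATF4 and DNAJB9 were lost, and without its replicate 3 those of TRIB3, CHAC1, PCK2 and DNAJB9. The DNAJB9 call was also lost without shAjuba2 replicate 3. That of STC2 was lost without shAjuba1 replicate 1, 2 or 3, without shAjuba2 replicate 3 and without replicate 2 of both lines.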

How the results depend on the processing

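Of 1021 values of single members recomputed under other settings, 881 kept direction and side of the threshold, 103 no longer passed, 18 newly passed and 19 changed sign. With Parental as the control the sign changed for 13, 15 and 12 of 37 members in shAjuba1, shAjuba2 and Ajuba OE, among them the called PCK2 in shAjuba1 (-0.045). Among the values recomputed it changed for ASNS (-0.45), CHAC1 (-0.054), SLC6A9 (-0.059), SHMT2 (-0.30), SLC3A2 (-0.20), ERN1 (-0.088), HERPUD1 (-0.16) and HYOU1 (-0.10) in shAjuba1, for ASNS (-0.76), XBP1 (-0.16), VLDLR (-0.45), ATF5 (-0.17) and ERN1 (-0.054) in shAjuba2, and for HSPA5 (-0.16) in Ajuba OE. Leaving out samples gave -0.139 to 0.0031 for HSPA5 in shAjuba1 (above 0 without shScrambled replicate 1), -0.047 to 0.185 for DDIT3 in shAjuba1 against shAjuba2 (below 0 without shAjuba2 replicate 1) and -0.13 to 0.0127 for ATF4 in shAjuba2 (above 0 without replicate 2 of both lines). XBP1 in shAjuba2 was -0.23 without shAjuba2 replicate 3. None of these 4 was a call.

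Counts of members called that moved by over 1.5 times were these. Except with Parental as the control, the share of all genes called was not taken under these settings. With a log2 change of 1 or more in size also asked for, 4 members were called in shAjuba1, 1 in shAjuba2, 0 in Ajuba OE, 3 in shAjuba1 against shAjuba2 and 3 in shScrambled against Parental. With all 16 samples in the fit, 9 were called in shAjuba2, 10 in Ajuba OE, 1 in Control against Parental and 15 in shScrambled against Parental. DESeq2 called 9 in Ajuba OE and 2 in Control against Parental. DESeq2's size factors in edgeR gave 2 in Ajuba OE, and every gene with at least 1 count gave 8 there and 4 in Control against Parental. With Parental as the control shAjuba2 had 2. The median in place of the mean gave an arm difference of -0.0639 in shAjuba1.

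Leaving out 1 sample gave 20 to 27 called in shAjuba1, 0 to 15 in shAjuba2, 1 to 6 in Ajuba OE, 5 to 11 in shAjuba1 against shAjuba2, 0 to 3 in Control against Parental, 20 to 26 in shScrambled against Parental and 25 to 31 among the 6 lines. Without replicate 2 of both lines it was 10 in shAjuba2, 10 in Ajuba OE and 10 in shAjuba1 against shAjuba2. The first and last of these were chosen after seeing the data.

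Same-numbered replicates were paired in a fit with a replicate block. The numbers come from the labels, nothing says that they mark a shared day, and the correlation of same-numbered deviations in Ajuba OE with Control was 0.16, 0.62 and -0.05, and only replicate 2 correlated best with its own number in both lines, so the numbers were not taken to pair the samples. The other comparisons ranged from -0.17 to 0.21. With the block 9 members were called in shAjuba2, 21 in Ajuba OE (17 higher, 4 lower) and 7 in shAjuba1 against shAjuba2, and XBP1 in shAjuba2 was -0.25. It gave 27 in shAjuba1, 26 in shScrambled against Parental, 0 in Control against Parental and 31 among the 6 lines. The causes of these shifts were not tested.

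With 2 or 3 samples per line, a log2 difference as large as 0.82 (ASNS in Ajuba OE) did not pass the test, and a difference not called is not shown to be absent.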

Other observations

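Targets of NRF2, the factor that answers oxidative stress and that like ATF4 raises SLC7A11, were counted as a neighbouring pathway. Of 8 such genes, 2 were higher and 2 lower in shAjuba1 against shScrambled (50%, against 38.4% of all genes tested, median -0.01). Heme oxygenase HMOX1 was higher at 1.47 and SRXN1, which repairs peroxiredoxins, at 1.06, whereas the quinone reductase NQO1 was lower at -0.62 and thioredoxin reductase TXNRD1 at -0.43 on the log2 scale. HMOX1 was also higher in shAjuba1 than in shAjuba2, by 2.13, with GCLM of glutathione synthesis at 0.75. In that comparison 2 of the 8 were called (25%, against 19.6% of all genes). In Ajuba OE against Control none of the 8 was called by edgeR (5.43% of all genes were), with 1 at an unadjusted p under 0.05. In shAjuba2 against shScrambled none was called (7.63% of all genes were), with 3 at an unadjusted p under 0.05. At such shares a count of 0 among 8 genes is no contrast with shAjuba1. SRXN1 stood at 4.145, 2.755 and 9.964 RPM in shAjuba1 and 2.304 and 2.961 in shScrambled, so the samples overlapped and shAjuba1 replicate 3 stood far above the rest. It shares 2292 exon bases with another gene on its strand.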
